A study of Mus musculus with 412 samples.

Results

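Colonic sensory neurons of the mouse were examined for 9 genes of glutamate signalling: the vesicular glutamate transporters Slc17a6, Slc17a7 and Slc17a8, the AMPA receptor subunits Gria1, Gria2 and Gria4, the kainate receptor subunit Grik1 and the NMDA receptor subunits Grin1 and Grin2b. They were listed by name, with earlier results of these data known, and are 9 of the 45513 genes in the deposited expression table. Of these, 8 were above 0 in at least 1 neuron, Grin2b was listed at 0 in all, and 5 (Slc17a6, Gria1, Gria4, Grik1 and Grin1) had a mean of at least 10 transcripts per 1000000 (TPM) over all neurons. The neurons came from healthy C57BL/6J mice, whose ages the labels do not give, and carried no transgene or treatment other than Fast Blue, a retrograde tracer placed in the colon wall. After 3 to 10 days the thoracolumbar (TL, T10-L1) and the lumbosacral (LS, L5-S2) dorsal root ganglia were dissociated as separate cultures, and traced neurons were picked by hand. Of 399 neurons listed (203 TL and 196 LS), 325 have values in the table (167 TL and 158 LS), on 6 library plates. The 13 bath controls and the remaining 74 neurons were not used here.

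No animal is named for any neuron, so TL and LS are each 1 sample, neurons are not replicates, and no p-value is given for any comparison. Shares carry exact (Clopper-Pearson) 95% intervals that cover counting error only, a share of 0 is given with the limit set by 3 counts of the total, and comparisons were repeated within library plates 2 to 6, each of which holds neurons of both segments (plate 1 holds 5 TL neurons only). The reads recovered from the table ranged from 416007 to 12058968 per neuron, with a median of 2867070. A neuron is said to express a gene at 10 TPM or more, a level worth a median of 35.8 to 118 reads for 7 of the members and 189 reads for Gria2. All 8 sensory neuron markers fixed for the check (Tubb3, Uchl1, Snap25, Prph, Isl1, Pou4f1, Avil and Scn9a) reached 10 TPM in most neurons of each segment. Markers of satellite glia, the cells wrapped around sensory neuron bodies, differed between the segments: the summed level of the 10 marker genes had a median of 2403 TPM in TL (50.0 to 105208) and 379 TPM in LS (74.3 to 63342). Between the Gfra3 and Piezo2 neurons defined next, the medians of this sum were 1209 TPM (50.0 to 96853) and 1148 TPM (92.8 to 47807), those of 6 macrophage markers 60.6 and 14.0 TPM, those of 5 fibroblast markers 59.9 and 1.88 TPM, and those of 5 endothelial markers 57.5 and 34.2 TPM. Of these lists, 3 of 8 glia, 1 of 1 macrophage, 1 of 1 fibroblast and 0 of 2 endothelial genes that could be compared were at least 2-fold higher in Gfra3 neurons. Beyond leaving out the neurons of the highest glia sums, the part of these markers in the differences between segments and classes was not tested.

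Neurons were also divided by Gfra3, the receptor subunit for artemin found in many peptidergic nociceptors, and Piezo2, the mechanically gated channel of touch and stretch sensitive afferents. Of the 325 neurons, 158 had Gfra3 alone (82 TL and 76 LS), 120 had Piezo2 alone (55 TL and 65 LS), 25 had both and 22 had neither. They are called Gfra3 neurons and Piezo2 neurons below, and neither gene is among the 9 members.

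Glutamate is the main fast transmitter of primary afferents. Vesicular transporters load it into synaptic vesicles, and ionotropic receptors, which are tetramers of subunits, open in answer to it on the spinal neurons. Sensory neurons also make receptor subunits themselves, and such receptors are known at their central terminals and in the periphery.

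The members lie on 8 chromosomes of the mouse assembly GRCm38 (GENCODE M21 gene models). Slc17a6 (ENSMUSG00000030500) is at chr7:51622006-51671119 on the plus strand and Slc17a7 (ENSMUSG00000070570) at chr7:45163949-45176142 on the plus strand. Slc17a8 is at chr10:89574020-89621253, Gria1 at chr11:57011387-57330244 and Gria2 at chr3:80681450-80802835. Gria4 is at chr9:4417896-4796234, Grik1 at chr16:87895900-88290265, Grin1 at chr2:25291181-25319187 and Grin2b at chr6:135713233-136173511. All but Slc17a6, Slc17a7 and Gria1 are on the minus strand. The antisense gene Grin1os shares 1307 exonic bases with Grin1. Smart-seq2 libraries do not mark strand, so reads of the pair cannot be told apart in that stretch.

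The 250 bases before the first start that RefSeq lists (GRCm38.p6) are shown for the 3 vesicular transporters, because these are close relatives that the colonic neurons expressed very unequally, as described next. Capitals mark the GC box letters GGGCGG on either strand, and each sequence reads 5′ to 3′ on the strand of its gene. The windows are chr7:51621580-51621829 (plus) for Slc17a6, chr7:45163671-45163920 (plus) for Slc17a7 and chr10:89621250-89621499 (minus) for Slc17a8, and their starts differ slightly from those of the GENCODE models.
Slc17a6: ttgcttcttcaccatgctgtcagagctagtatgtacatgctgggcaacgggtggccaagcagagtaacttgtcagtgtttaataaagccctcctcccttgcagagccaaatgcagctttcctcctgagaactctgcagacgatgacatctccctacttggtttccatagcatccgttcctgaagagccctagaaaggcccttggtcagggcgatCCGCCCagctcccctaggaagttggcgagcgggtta
Slc17a7: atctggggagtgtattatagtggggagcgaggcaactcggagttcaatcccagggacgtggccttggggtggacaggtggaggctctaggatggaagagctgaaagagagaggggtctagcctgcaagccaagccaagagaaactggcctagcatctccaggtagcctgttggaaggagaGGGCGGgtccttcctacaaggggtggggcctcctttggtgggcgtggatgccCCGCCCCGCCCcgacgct
Slc17a8: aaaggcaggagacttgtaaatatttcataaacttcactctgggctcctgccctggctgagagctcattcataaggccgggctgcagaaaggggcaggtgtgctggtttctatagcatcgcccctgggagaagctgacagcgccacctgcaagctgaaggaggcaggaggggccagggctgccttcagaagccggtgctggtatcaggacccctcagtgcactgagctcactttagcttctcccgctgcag
The Slc17a7 window holds the GC box 3 times, 70, 18 and 13 bases before the start, with the last pair overlapping by 1 base. The Slc17a6 window holds it once and the Slc17a8 window not at all. At least 1 GC box was present in 32.7% of the 32851 windows of the same length in the RefSeq table. TATAAA (12.4% of windows), CCAAT (33.8%) and TGACGTCA (1.55%) were searched on both strands and were found in none of the 3. CpG pairs numbered 7, 9 and 5 in the order shown, against a median of 6. These matches describe letters only. The table holds 6 of the 9 members and none of Gria1, Grik1 and Grin2b.

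Per length, the mean levels over all neurons were 222 TPM for Slc17a6, 49.2 for Grik1, 12.6 for Grin1, 11.5 for Gria1, 11.2 for Gria4, 2.31 for Gria2, 2.30 for Slc17a7 and 0.185 for Slc17a8. Grin1, Gria1 and Gria4, and likewise Gria2 and Slc17a7, are neighbours in this order that lie closer together than their SDs over neurons, which were 7.69, 13.1, 8.50, 2.38 and 7.42 TPM.

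Slc17a6 encodes VGLUT2, and it was the most widely expressed member. It ranged from 0 to 496 TPM with a median of 232 TPM, and 314 of 325 neurons (96.6%, 94.0 to 98.3) reached 10 TPM. Its mean was 183 ± 96.9 TPM in TL (SD over 167 neurons) and 263 ± 108 TPM in LS (SD over 158 neurons), 1.44-fold higher in LS. The neurons of the segments overlapped widely, from 0 to 464 TPM in TL and from 4.50 to 496 TPM in LS, yet the LS mean was the higher in all 5 plates compared. Within Piezo2 neurons the means were 193 TPM in TL and 311 TPM in LS (1.61-fold), and within Gfra3 neurons they were 191 and 246 TPM (1.29-fold), again with LS higher in 5 of 5 plates each time. Without the 10% of neurons with the highest satellite glia sum, the log2 ratio of the LS to the TL mean was 0.44, against 0.52 in all neurons. On reads per 1000000, without division by length, it was also 0.52. Between the classes it was 1.18-fold higher in Piezo2 than in Gfra3 neurons, in 5 of 5 plates with the segments pooled. Within TL the ratio was 1.01 (Piezo2 higher in 3 of 5 plates), and within LS it was 1.27 (5 of 5).

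Across the 7752 genes with a mean of at least 10 TPM in TL or LS, 5.93% had means at least 2-fold apart. None of the 5 members that could be compared did, and their median log2 ratio was 0.12 against 0.04 over all those genes. These medians were 0.027 and 0.034 without 57 neurons (34 TL and 23 LS) of few genes, few reads or high mitochondrial share. Without the 10% of neurons with the highest satellite glia sum they were 0.027 and 0.026. Between Gfra3 and Piezo2 neurons, 10.6% of 7895 genes were at least 2-fold apart, and so were 2 of the 5 members compared, Gria1 (higher in Gfra3 neurons, as 4.41% of genes were) and Grik1 (higher in Piezo2 neurons, as 6.21% were). The same 2 genes were apart within TL (14.1% of genes) and within LS (10.3%), where the TL value of Grik1 rested on 12 neurons that expressed Mrgprd. Between LS and TL within Gfra3 neurons, 5.59% of genes and 0 of 4 members were 2-fold apart. With 5 genes, these counts are a description and not a property of the family.

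**Figure D1:**
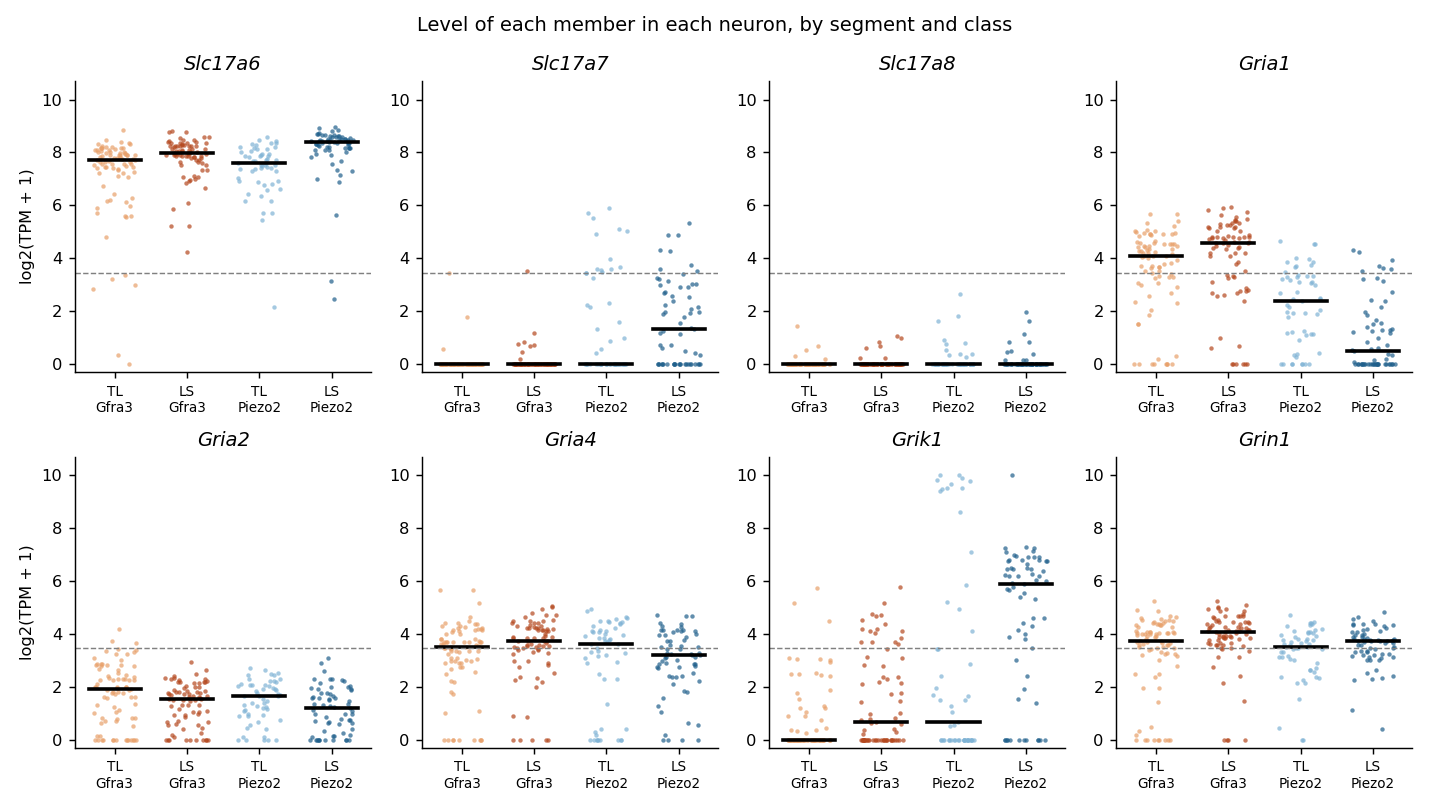
Level of the 8 detected members in each Gfra3 or Piezo2 neuron, as log2(TPM + 1) on the vertical axis, for TL and LS neurons apart. Each point is 1 neuron, black bars are medians and the dashed line is 10 TPM. Slc17a6 lies far above the line nearly everywhere, and Gria1 is higher in Gfra3 neurons. Grik1 is low in most TL Piezo2 neurons (median 0.610 TPM, with 16 of 55 at 10 TPM or more), beside a group near 10 on this scale. In LS Piezo2 neurons it forms a broad group near 6.

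Slc17a7 encodes VGLUT1, known in sensory ganglia from large, fast conducting neurons. It was at 0 in most neurons and reached 10 TPM in 22 of 325 (6.77%, 4.29 to 10.1), with a maximum of 59.0 TPM. Of these 22, 20 were Piezo2 neurons, 1 was a Gfra3 neuron and 1 had neither gene. In Piezo2 neurons it was expressed in 12 of 55 from TL (21.8%, 11.8 to 35.0) and 8 of 65 from LS (12.3%, 5.47 to 22.8). In Gfra3 neurons it was expressed in 0 of 82 from TL, which allows a share of up to 3.66% (3 counts of 82), and in 1 of 76 from LS. The means in Gfra3 and Piezo2 neurons were 0.176 and 5.52 TPM, with Piezo2 neurons higher in 5 of 5 plates. Every Slc17a7 neuron also expressed Slc17a6.

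The Slc17a7 neurons of TL carried a recurrent set of other genes, which those of LS shared only in part. Several of the marker genes used here were picked by the study on these neurons, so their pairing with the members is a description. In TL Piezo2 neurons, Cbln2, a secreted synapse organiser, was at 10 TPM or more in 9 of the 12 Slc17a7 neurons and in 1 of the other 43. Ntrk2, the receptor for BDNF, was expressed in 12 of 12 and in 10 of 43. Calca, which encodes the peptide CGRP, was expressed in 4 of 12 and in 43 of 43. All 8 TL Piezo2 neurons without Calca had Slc17a7. The irritant and heat channels Trpa1 and Trpv1 were at 10 TPM in 0 of 12 Slc17a7 neurons each, and in 20 and 21 of the other 43.
In LS Piezo2 neurons the pairing was alike for some of these genes only. Trpv1 was expressed in 0 of 8 Slc17a7 neurons and in 27 of the other 57. Ntrk2 was expressed in 8 of 8, but also in 50 of the other 57. Hpse (heparanase), Spp1 (osteopontin) and Th (tyrosine hydroxylase) were frequent with and without Slc17a7. They were expressed in 5, 6 and 6 of 8 and in 37, 32 and 48 of 57. Cbln2 was expressed in 3 of 8 and in 0 of 57, and Tac1, the substance P precursor, in 0 of 8 and in 39 of 57. Calca was expressed in 7 of 8 and 57 of 57, against 4 of 12 Slc17a7 neurons in TL. That difference between the segments was not tested.

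Slc17a8 encodes VGLUT3, which in skin afferents is linked to low threshold C fibres that also carry Th, tyrosine hydroxylase. It was detected in 40 of 325 neurons, and 1 neuron reached 10 TPM, at 13.1 TPM. That neuron was a TL neuron with both Gfra3 and Piezo2. Th itself was at 10 TPM or more in 238 neurons, and Slc17a8 reached it in 1 of those 238 and in 0 of the other 87. With 1 such neuron in all, these counts cannot tell Th neurons apart from the others.

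Counting the 3 genes together, 11 neurons (3.38%, 1.70 to 5.98) had no vesicular glutamate transporter at 10 TPM, 291 had 1 and 23 (7.08%, 4.54 to 10.4) had 2. The 291 had Slc17a6 alone, 22 added Slc17a7 to it and 1 added Slc17a8. By class, 20 of 120 Piezo2 neurons (16.7%, 10.5 to 24.6) had 2 of the genes and 1 of 158 Gfra3 neurons (0.633%, 0.0160 to 3.48) did. The vesicular GABA transporter Slc32a1, chosen as the marker of inhibitory neurons, was listed at 0 in all 325 neurons. The highest of the other vesicular transporter genes were Slc17a5, the lysosomal sialic acid transporter also called sialin, at a mean of 21.6 TPM, and Slc18a2, the monoamine transporter, at 4.97 TPM.

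**Figure D2:**
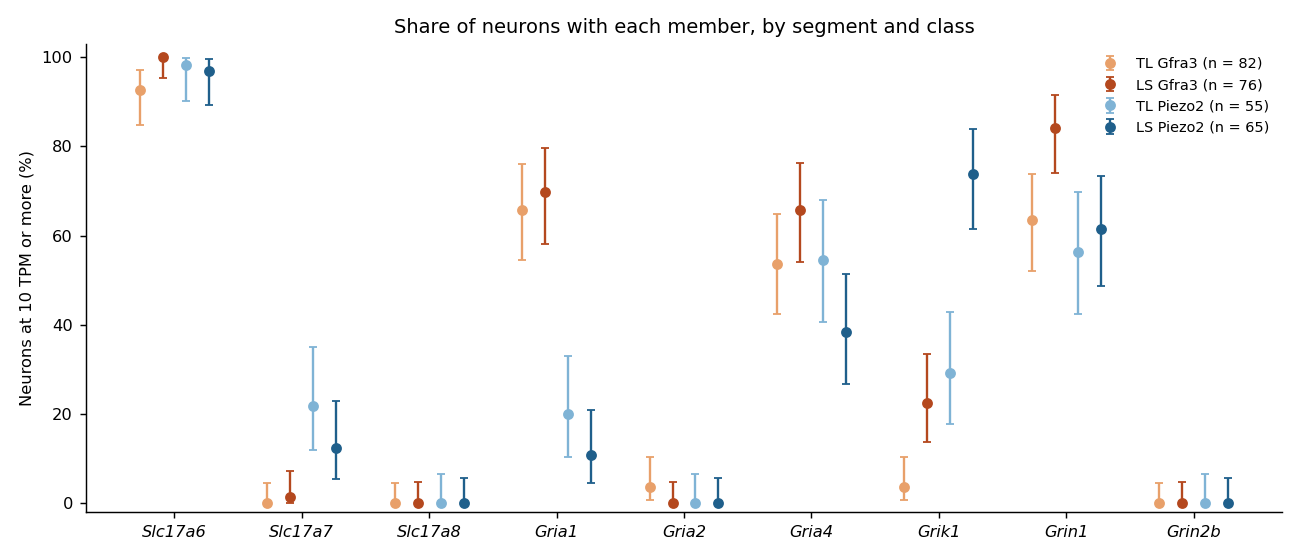
Percentage of neurons at 10 TPM or more of each member (vertical axis) in TL and LS neurons with Gfra3 alone or Piezo2 alone. Points are shares and bars are exact 95% intervals, which cover counting error only. The Gria1 share is higher in Gfra3 than in Piezo2 neurons in both segments, and Grik1 is expressed in 73.8% of LS Piezo2 neurons against 29.1% of TL Piezo2 neurons.

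Gria1 encodes GluA1, an AMPA receptor subunit. It ranged from 0 to 60.5 TPM with a median of 7.03 TPM, and 131 of 325 neurons (40.3%, 34.9 to 45.9) reached 10 TPM. The classes differed more than the segments. Its mean was 19.2 ± 14.1 TPM in Gfra3 neurons (SD over 158) and 4.08 ± 5.49 TPM in Piezo2 neurons (SD over 120), 4.70-fold apart, and the shares were 67.7% (59.8 to 74.9) and 15.0% (9.14 to 22.7). The medians were 18.3 and 1.38 TPM, and the ranges overlapped, since Piezo2 neurons reached 24.0 TPM and some Gfra3 neurons were at 0. The mean and the share were higher in Gfra3 neurons in 5 of 5 plates. Of 9460 genes expressed in 5% to 95% of neurons, 5.69% had a share at least 20 points higher in Gfra3 than in Piezo2 neurons, and Gria1 was the 1 of 5 members in that range that did (8.15% of genes and again Gria1 within TL). The difference of the means was 2.76-fold within TL and 8.78-fold within LS. Gfra3 neurons of LS had a 1.37-fold higher mean than those of TL, in 5 of 5 plates. Piezo2 neurons of LS had a 2.33-fold lower mean than those of TL, also in 5 of 5 plates. Both Piezo2 means, 5.91 TPM in TL and 2.54 TPM in LS, were under the 10 TPM needed for a comparison. Over all neurons the mean was 11.02 TPM in TL and 11.98 TPM in LS. Whether the class difference itself differed between segments was not tested. None of the 22 neurons with neither gene reached 10 TPM of Gria1.

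Gria4 encodes GluA4 and was spread more evenly. It was expressed in 170 of 325 neurons (52.3%, 46.7 to 57.8), with means of 11.3 TPM in TL and 11.05 TPM in LS. In TL the shares were 53.7% of Gfra3 and 54.5% of Piezo2 neurons, and in LS they were 65.8% (54.0 to 76.3) and 38.5% (26.7 to 51.4). The higher LS share of Gfra3 neurons held in 5 of 5 plates. Within LS, 6.07% of genes had a share at least 20 points higher in Gfra3 than in Piezo2 neurons, and 3 of 5 members did, Gria1, Gria4 and Grin1. Gria1 and Gria4 were expressed together in 83 neurons (25.5%), against 21.1% from the product of their single shares.

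Gria2 encodes GluA2, the subunit whose edited form makes AMPA receptors nearly impermeable to calcium. It was detected in 271 of 325 neurons (83.4%) but at low levels per length, with a median of 1.89 TPM and a maximum of 17.1 TPM, and 3 neurons, all TL Gfra3 neurons, reached 10 TPM. Its mean was 2.79 TPM in TL and 1.79 TPM in LS, lower in LS in 5 of 5 plates. The exon length by which its reads were divided, 15548 bases, was the longest of the detected members, against 6043 for Gria1. In reads that are not divided by length, Gria2 summed to 15408 over all neurons, Gria1 to 29728 and Gria4 to 31266. Adar and Adarb1, enzymes that edit adenosines in RNA and of which the second edits the GluA2 transcript, had means of 6.94 and 1.52 TPM.

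In the 259 neurons in which the AMPA subunits Gria1 to Gria4 summed to at least 10 TPM, the median share of that sum was 43.9% for Gria4, 40.3% for Gria1 and 7.42% for Gria2. Gria1 was the leading subunit in 67.6% of these neurons in TL Gfra3 and 66.7% in LS Gfra3, and Gria4 led in 74.4% of TL Piezo2 and 81.6% of LS Piezo2 neurons. Gria3, the subunit outside the members, was expressed in 8 of 325 neurons, and its mean was 1.02 TPM. Of the delta receptor genes, Grid1 had a mean of 3.30 TPM.

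**Figure D3:**
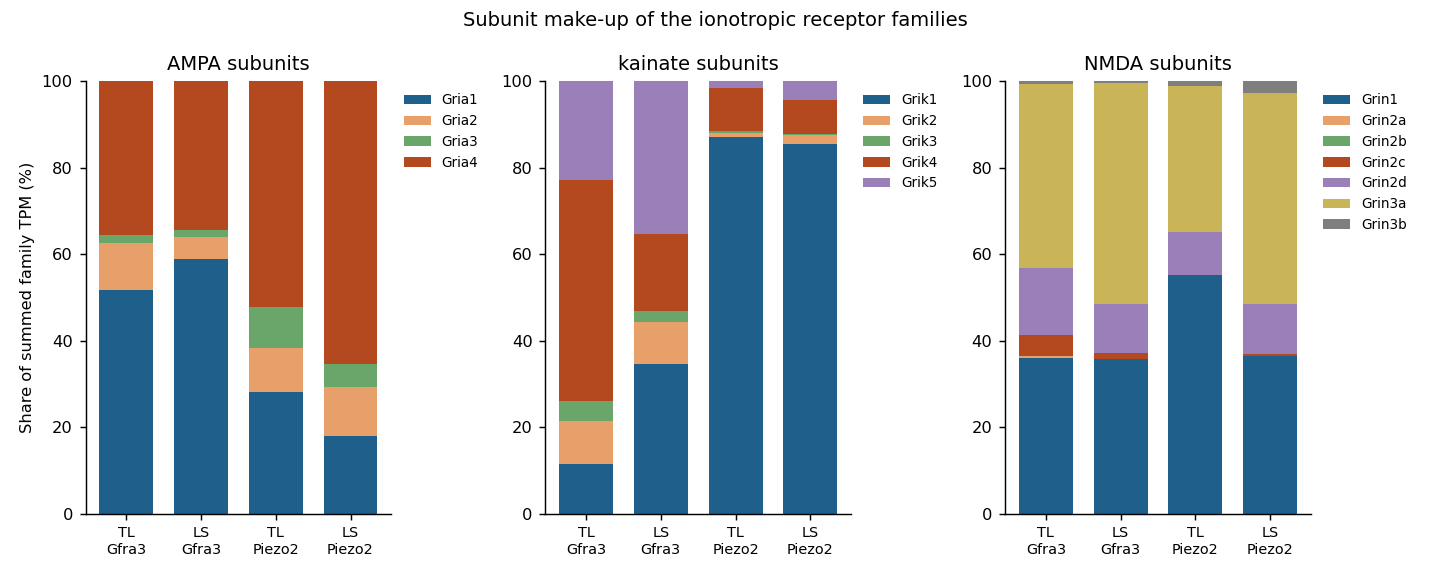
Share of the summed TPM of each receptor family (vertical axis, percent) held by each subunit gene, in TL and LS neurons with Gfra3 alone or Piezo2 alone. Bars are stacked to 100%. Gria1 holds 51.6% and 58.8% of the AMPA sum in TL and LS Gfra3 neurons, Grik1 holds 87.1% and 85.4% of the kainate sum in TL and LS Piezo2 neurons, and Grin1 and Grin3a hold most of the NMDA sum. The bars weight neurons by their level: in the median TL Piezo2 neuron Grik1 held 5.92% of the kainate sum, and in the median LS Piezo2 neuron 86.1%.

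Grik1 encodes GluK1, a kainate receptor subunit long associated with small dorsal root ganglion neurons. It had the widest range of the members, from 0 to 1043 TPM, with a median of 0.563 TPM, and 95 of 325 neurons (29.2%, 24.3 to 34.5) reached 10 TPM. Piezo2 neurons had a mean of 116 ± 248 TPM (SD over 120) and Gfra3 neurons 3.86 ± 8.73 TPM (SD over 158), 30.0-fold apart (log2 ratio of Gfra3 to Piezo2 means -4.91), and the shares were 53.3% (44.0 to 62.5) and 12.7% (7.91 to 18.9). Mean and share were higher in Piezo2 neurons in 5 of 5 plates when the segments were pooled. Across genes, 7.45% had a share at least 20 points higher in Piezo2 neurons, and Grik1 was the 1 of 5 members that did. Within LS it was again Grik1 (9.21% of genes), and within TL it was Grik1 and Slc17a7 (8.48%). For Grik1 the TL share rested on Mrgprd neurons, which were 12 of the 16 TL Piezo2 neurons with the gene. Of the other 43 TL Piezo2 neurons, 4 expressed it (9.30%, 2.59 to 22.1), against 3 of 82 TL Gfra3 neurons (3.66%). In single plates of TL the order was not uniform, and the Piezo2 mean of Grik1 was the higher in 3 of 5. Without the neurons that expressed Mrgprd, a split chosen after the values were seen, the log2 ratio was -3.245.

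The share and the mean of Grik1 went in opposite directions between the segments. It was expressed in 24 of 167 TL neurons (14.4%, 9.43 to 20.6) and 71 of 158 LS neurons (44.9%, 37.0 to 53.0), and the LS share was higher in 5 of 5 plates. Among the same 9460 genes, 4.44% had an LS share at least 20 points above the TL share, and Grik1 was 1 of the 5 members in that range and the one that did so. The mean was 62.7 ± 208 TPM in TL and 34.9 ± 89.1 TPM in LS, 1.80-fold lower in LS, with LS lower in 3 plates and higher in 2. The log2 ratio of the means was -0.84, and it was -1.01 without the 10% of neurons of the highest satellite glia sum. With plates left out in turn it ranged from -1.58 (without plate 4) to -0.31 (without plate 5), and it passed 2-fold without plate 2 (-1.03) or plate 4. The difference of the mean log2(TPM + 1) had the other sign, 1.34.

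Few TL neurons held most of the Grik1 transcripts. Mrgprd, a receptor of non-peptidergic nociceptors, was at 10 TPM or more in 17 neurons, and all 17 expressed Grik1 (100%, 80.5 to 100). The 15 in TL ranged from 116 to 1043 TPM with a median of 728 TPM, and they held 94.2% of the summed Grik1 TPM of the 167 TL neurons. Among the other 152 TL neurons, 9 expressed Grik1 (5.92%, 2.74 to 10.9), the mean was 4.03 TPM and 1 neuron exceeded 100 TPM. In LS, the 2 Mrgprd neurons had 11.8 and 1017 TPM, and of the other 156 neurons 69 (44.2%, 36.3 to 52.4) expressed Grik1, with a mean of 28.8 TPM and a maximum of 154 TPM. Of the 55 TL Piezo2 neurons, 12 expressed Mrgprd and held 98.0% of the Grik1 sum. The other 43 had a mean of 4.29 TPM, against 2.25 TPM in all 82 TL Gfra3 neurons, both under the 10 TPM needed for a comparison. Without the Mrgprd neurons, the log2 ratio of LS to TL means was 2.84. The 15 TL Mrgprd neurons were spread over plates 2 to 6, with 1 to 5 in each.

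**Figure D4:**
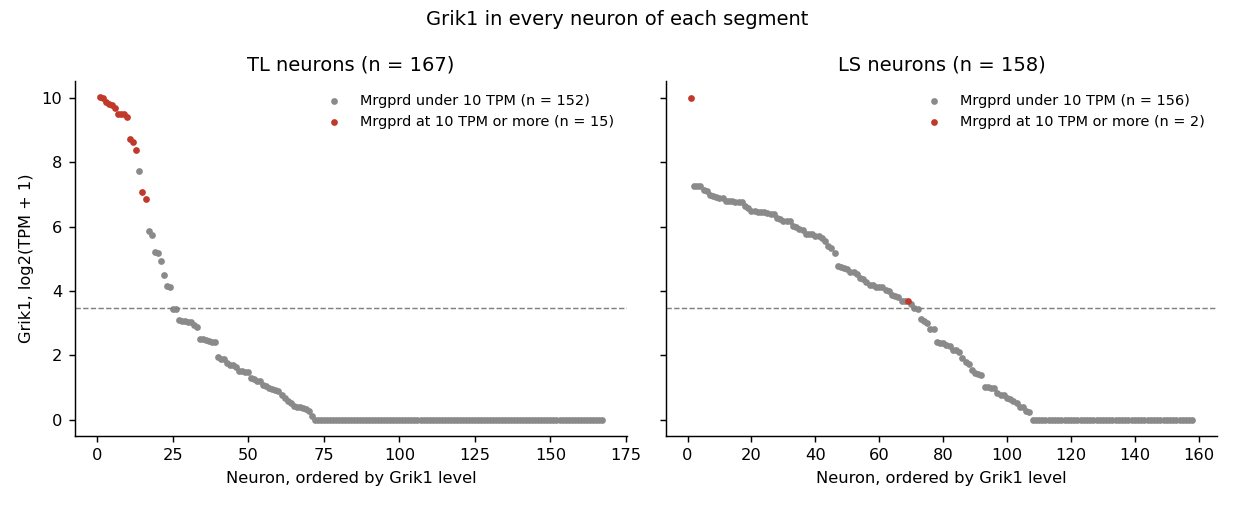
Grik1 in every TL neuron (left) and LS neuron (right), ordered from highest to lowest, as log2(TPM + 1) on the vertical axis, with neurons at 10 TPM or more of Mrgprd in red and the dashed line at 10 TPM. In TL a short, steep set of mostly Mrgprd neurons is followed by neurons near 0, and in LS a long slope of neurons without Mrgprd carries the gene.

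In LS, Grik1 followed other genes. Of the 65 LS Piezo2 neurons, 48 expressed it (73.8%, 61.5 to 84.0), at 0 to 1017 TPM with a median of 58.1 TPM, whereas 16 of 55 TL Piezo2 neurons did (29.1%, 17.6 to 42.9), at 0 to 1043 TPM with a median of 0.610 TPM. LS was higher in share in 5 of 5 plates. Across genes, 12.1% had an LS share at least 20 points above TL within Piezo2 neurons, as Grik1 alone of 5 members did. The means were at least 2-fold apart for 10.5% of genes and for 1 of 4 members compared, Grik1, which was lower in LS by its mean (72.2 and 167 TPM). Hpse, the heparanase gene and a subtype marker of the study, was expressed in 40 of the 48 LS Piezo2 neurons with Grik1 and in 2 of the 17 without it. Th was expressed in 46 of the 48 and 8 of the 17, and Spp1, osteopontin, in 34 and 4. Of 76 LS Gfra3 neurons 17 expressed Grik1 (22.4%, 13.6 to 33.4) against 3 of 82 in TL (3.66%, 0.761 to 10.3). Ntm, which encodes the adhesion protein neurotrimin, was expressed in 16 of those 17 LS neurons and in 22 of the other 59.

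Other kainate subunits had lower means over all neurons. By neuron the order was different: of 259 neurons whose kainate sum was at least 10 TPM, Grik4 led in 113 and Grik1 in 98. Grik4, a high affinity subunit that needs a partner such as GluK1 to form channels, had a mean of 14.0 TPM in TL and 4.79 TPM in LS, 2.93-fold lower in LS in 5 of 5 plates, and was expressed in 90 of 167 TL neurons (53.9%) and 23 of 158 LS neurons (14.6%). Of the 4 kainate subunits outside the members it was the only 1 with a mean high enough to be compared. In neurons whose kainate sum was at least 10 TPM, Grik4 was the leading subunit in 63.0% in TL and Grik1 in 57.3% in LS. Among Piezo2 neurons Grik4 led in 60.4% and Grik1 in 35.4% in TL, and Grik1 led in 76.2% in LS. Grik5 had a mean of 4.20 TPM.

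**Figure D5:**
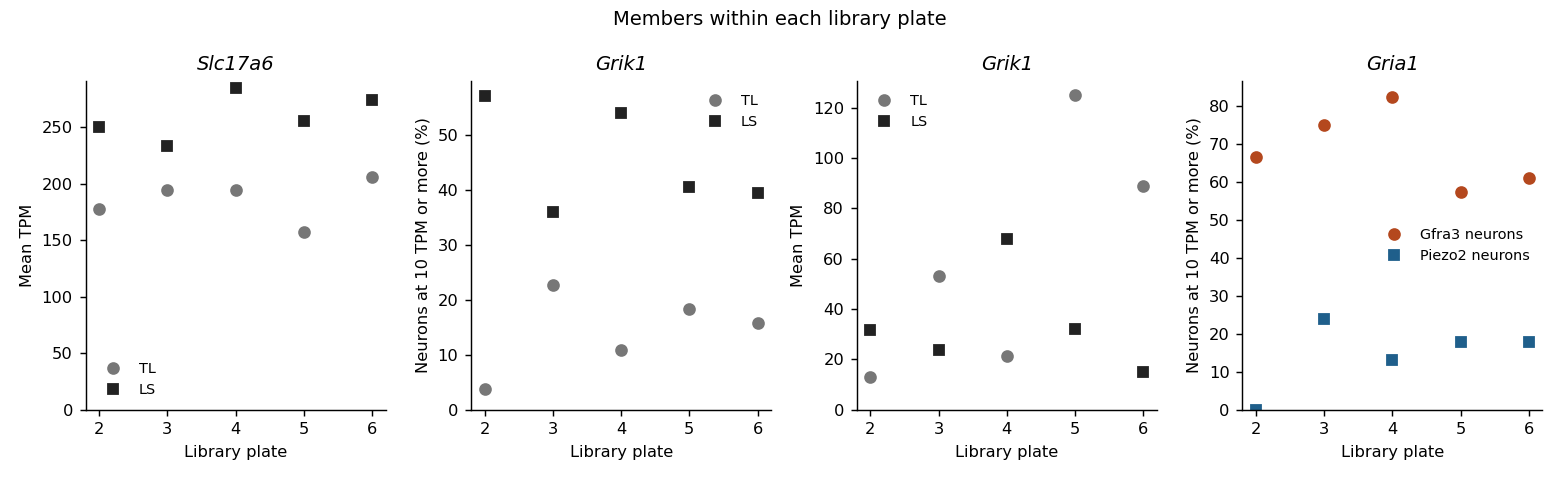
Mean Slc17a6, share and mean of Grik1 in TL and LS neurons, and share of neurons with Gria1 in Gfra3 and Piezo2 neurons, within each of library plates 2 to 6 (horizontal axis). Each point is the value over the neurons of 1 plate. LS lies above TL in every plate for Slc17a6 and for the Grik1 share, and the Grik1 mean changes order between plates.

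Grin1 encodes GluN1, the obligatory subunit of NMDA receptors. It ranged from 0 to 37.2 TPM with a median of 12.5 TPM and was expressed in 209 of 325 neurons (64.3%, 58.8 to 69.5). Its mean was 11.4 ± 7.43 TPM in TL and 13.8 ± 7.79 TPM in LS, with LS higher in 4 of 5 plates, and the shares were 58.7% (50.8 to 66.2) and 70.3% (62.5 to 77.3). In Gfra3 neurons the shares were 63.4% in TL (52.0 to 73.8) and 84.2% in LS (74.0 to 91.6), with LS higher in 5 of 5 plates. Across genes, 4.09% had an LS share at least 20 points above TL within Gfra3 neurons, and Grin1 was the 1 of 5 members that did. In Piezo2 neurons the Grin1 shares were 56.4% in TL and 61.5% in LS, and the order differed between plates. For example, the TL and LS shares were 70% and 81.8% in plate 3, and 50% and 28.6% in plate 6.

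Grin2b, which encodes the GluN2B subunit, was listed at 0 in all 325 neurons, and 0 of 325 allows a share of detected neurons of up to 0.923% (3 counts of 325). At the exon length of 24842 bases, 10 TPM of it would be worth a median of 302 reads. Of the other 5 NMDA subunits, Grin2a and Grin3b reached 10 TPM in no neuron and Grin2c in 1. Grin2d was expressed in 44 neurons (13.5%, 10.01 to 17.7), at a mean of 4.27 TPM. Grin3a, which encodes a subunit that binds glycine, had a mean of 15.0 TPM and was expressed in 205 neurons (63.1%, 57.6 to 68.3). It led the family in 55.9% of the 279 neurons whose NMDA sum was at least 10 TPM, ahead of Grin1 with 39.4%. That order is per length, and the Grin1 reads were divided by 9700 bases. The mean of Grin3a was 11.3 TPM in TL and 18.9 TPM in LS, 1.67-fold apart in 5 of 5 plates. Within Piezo2 neurons Grin3a was at 6.56 TPM in TL and 16.1 TPM in LS, 2.46-fold apart.

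Receptor members were combined in most neurons. Of the 6 receptor genes, 43 neurons (13.2%, 9.74 to 17.4) expressed none, 64 expressed 1, 122 expressed 2, 84 expressed 3 and 12 expressed 4. Gria1 and Grik1 tended to fall in different neurons: 24 (7.38%, 4.79 to 10.8) had both, against 11.8% from the product of their single shares, 107 had Gria1 alone of the pair and 71 had Grik1 alone. Within Gfra3 neurons the observed share was 10.1% and the product 8.57%. Gria1 and Grin1 were expressed together in 104 neurons (32.0%, product 25.9%), and Gria4 and Grin1 in 131 (40.3%, product 33.6%). Products are given for description only, and the members' levels also ran with the number of genes detected. Gria4 and Grik1 met in 38 neurons (11.7%, product 15.3%).

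The 22 neurons with neither Gfra3 nor Piezo2 stood apart. They had a median of 9459 genes detected, against 13658 over all neurons, and a mean Slc17a6 of 66.9 TPM. Of these 22, 10 expressed no receptor member, and their median satellite glia sum was 1920 TPM, against 1300 TPM over all neurons. Leaving them out moved the log2 ratio of Slc17a6 between segments to 0.49 and left the Grik1 shares at 14.8% in TL and 44.6% in LS.

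Genes around the receptors were described by fixed lists, with those called at least 2-fold apart given against the shares of all genes above. Of 14 auxiliary subunits of AMPA and kainate receptors, 5 had a mean of at least 10 TPM. Cnih2, a cornichon protein that accompanies AMPA receptors, had the highest mean, 96.8 TPM, with 157 TPM in Gfra3 and 30.0 TPM in Piezo2 neurons, 5.22-fold apart. Cacng3, a transmembrane AMPA receptor regulatory protein, was at 17.3 and 3.09 TPM, 5.58-fold apart in the same direction as Gria1. Cacng5, of the same family, went the other way at 8.10 and 19.9 TPM, and it was 5.70-fold higher in LS than in TL, at 20.4 and 3.57 TPM. Neto2, an accessory protein of kainate receptors, had a mean of 26.5 TPM. Of 8 scaffold and trafficking genes, 4 could be compared between segments and 3 between classes, and none of these was 2-fold apart. The highest were Nsf (94.2 TPM), the ATPase of membrane fusion, and Pick1 (16.8 TPM), a binding partner of GluA2.

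Of 8 metabotropic receptor genes, Grm7, the presynaptic receptor of low glutamate affinity, had a mean of 30.1 TPM and was expressed in 273 neurons (84.0%, 79.6 to 87.8). The next, Grm4, had a mean of 2.05 TPM, and 4 of the 8 reached 10 TPM in no neuron. Of 6 plasma membrane transporters, Slc1a6 was the highest at 9.23 TPM, followed by the glial transporter Slc1a3 at 2.17 TPM, which is also in the satellite glia list. Of 8 genes of glutamate and glutamine metabolism, the transaminases Got1 and Got2 had means of 193 and 187 TPM. Slc38a1, a glutamine transporter, was at 1.19 TPM in Gfra3 and 16.9 TPM in Piezo2 neurons, 14.2-fold higher in the latter.

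All 10 genes of synaptic vesicle release had a mean of at least 10 TPM, led by Rab3a at 735 TPM and Vamp2 at 428 TPM. Vamp1 was 4.07-fold higher in Piezo2 than in Gfra3 neurons (146 and 36.0 TPM). Syt2, a fast calcium sensor of release, was 5.70-fold higher in Piezo2 neurons (26.1 and 4.57 TPM) and 2.95-fold lower in LS than in TL (7.65 and 22.6 TPM). Slc17a7 had the same direction as Vamp1 and Syt2 between the classes.

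The genes whose levels ran most closely with each member were ranked by Spearman's rho over the 325 neurons and 11450 genes, on log2(TPM + 1) with the mean of each plate and segment removed. The points share libraries, plates and depth, so these are descriptions. The means were removed before ranking, so neurons at 0 of a gene took a rank set by their plate and segment. The rho values of Slc17a7 and Grik1, detected in 84 and 178 of 325 neurons, are therefore not free of plate and segment. Slc17a6 was most like Magee1 (0.740), Emb (0.726) and Pja2 (0.720), and its own rho with the number of genes detected was 0.593. Slc17a7 was most like Hrasls (0.654), Cap2 (0.642) and Nrtn (0.616), the gene for neurturin, and it ran against Gria1 (-0.260). Gria1 was most like Gabrg3 (0.704), a GABA A receptor subunit, Tmem255a (0.691) and Kcnk3 (0.676), a background potassium channel. Gria4 had no close partner, with Sybu (0.483), Cntnap2 (0.468) and Maged1 (0.466) at the top. Grik1 was most like Arhgap6 (0.564), Mgat4a (0.563) and Hpse (0.548). Grin1 was most like Gaa (0.692), Gprasp1 (0.658) and L1cam (0.657), with a rho of 0.444 with the number of genes detected. Among the members themselves the highest values were between Grin1 and Slc17a6 (0.490) and between Grin1 and Gria1 (0.413).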

How the data were processed

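Per the methods, the authors made Smart-seq2 libraries (full-length cDNA), sequenced paired reads, aligned them to GRCm38.p3, counted them with featureCounts and filtered out low-quality neurons. Neurons that the study set aside for satellite glia transcripts before clustering were not left out here. The submitters' processing notes name bcl2fastq 2.15.0.4, STAR 2.4.1 and featureCounts 1.4.4. The deposited values are log2 scores, the log2 of a length-normalised value plus 1, entered as a score because their sums before the log ran from 218865 to 11159100 per neuron and not to 1000000. Here 2^value - 1 was rescaled to 1000000 per neuron and called TPM. Whole reads were recovered from the steps of the values (tolerance 1e-06): 65.0% of values came out whole with annotated exon lengths, and lengths of 8712 genes were taken from the values. All 9 members and 137 of 137 listed genes matched by Ensembl identifier and symbol. Groups came from the spinal segment label. With 1 sample per segment no test was run. Called means a ratio of mean TPM of at least 2 over genes whose mean reached 10 TPM in 1 group or more.

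The members and gene lists were chosen with earlier results of these data known. All 9 members are named, with the 2 highest genes of each pathway list, any of its genes past 2-fold, and the 3 genes of highest rho per member expressed in at least 20 neurons. Ratio calls and rho were tested on simulated data. The planted changes were larger than 2-fold and shared by all neurons of a segment. That test therefore does not cover calls near 2-fold or those that rest on few neurons. Python 3.11.15, pandas 2.3.3, numpy 2.4.6, scipy 1.17.1 and matplotlib 3.10.9 were used.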

Additional observations from a re-analysis of the deposited data

How the results depend on the processing

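Between Gfra3 and Piezo2 neurons, Gria1 and Grik1 were at least 2-fold apart, in the same directions, under every alternative run, and Slc17a7 (lower in Gfra3 neurons) joined them at a minimum mean of 1 TPM. Between LS and TL the count of members was 0, and it was 1 (Grik1, lower in LS) on the values as deposited and without the 10% of neurons of the highest glia sum, 0 to 1 when plates were left out in turn (1, Grik1 lower, without plate 2 or plate 4), and 1 (Grik1, higher in LS) by the mean of log2(TPM + 1) and without Mrgprd neurons, an alternative chosen after seeing the data like that without neurons lacking Gfra3 and Piezo2. Grik1 reversed in the last pair, against a log2 ratio of means of -0.84 in all neurons. The difference of its mean log2(TPM + 1), another measure, was 1.34, and its log2 ratio of means without Mrgprd neurons was 2.84. Leaving out the Mrgprd neurons removes 17 neurons, 15 of TL with 94.2% of the Grik1 sum in TL and 2 of LS with 18.6% of that in LS. The values as deposited moved the median log2 ratio of all genes from -0.04 to 0.35 between the classes and from 0.04 to -0.10 between segments. The share with 2 or more vesicular transporters was 12.9% at a threshold of 5 TPM and 3.08% at 20 TPM, and the other alternatives kept it between 5.62% and 9.54%. Thinning to 400000 reads gave 7.69%. No paired analysis was possible because the labels number no animals or cultures and each segment is 1 sample. Absence of a gene is limited by 1 library per neuron, and differences between segments cannot be told apart from differences between the cultures.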
